A study of Mus musculus with 25 samples.

Results

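The libraries described here are the 10 made from retinas of mice that received only the vehicle, out of 25 libraries in a series on small molecules that act on ATF6, a sensor of stress in the endoplasmic reticulum (ER). They were chosen by their label alone: 5 libraries carry the first vehicle label, called set 1 below, and 5 carry the second, called set 2. All came from wild-type C57BL/6J mice injected at postnatal day 30 with 1 µL of saline holding 0.05 to 0.1% dimethyl sulfoxide into the vitreous of both eyes. The treatment label reads PBS in both sets, no label says how the sets differ, and the time from injection to collection is not given for the vehicle libraries. Nothing states that the libraries of a set came from separate animals, so an SD or p-value here covers only how far libraries of a set lay apart, and that may be technical. The cornea and lens had been removed and the retina had been harvested before RNA extraction. No uninjected retina was analysed here, so the levels are those of a vehicle-injected eye.

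The retina turns light into nerve signals. In rods, light acts on the visual pigment, which activates the G protein transducin, which in turn switches on a phosphodiesterase that destroys cyclic GMP and lets cation channels close. Recoverin, a receptor kinase, arrestin and the guanylate cyclase activators then return the cell to the dark state. Mouse retina is dominated by rods, with smaller numbers of cones, bipolar, amacrine, horizontal and ganglion cells, and Müller glia span its depth. Photoreceptors are known for aerobic glycolysis, the conversion of glucose to lactate in the presence of oxygen. In bulk RNA, fewer cells of a type and less RNA per cell cannot be told apart.

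Every level is in FPKM, fragments per kilobase of transcript per 1000000 mapped fragments, which allows levels of different genes to be set side by side. The summed FPKM of a library was 410597 to 426757 over the 18440 genes listed for both sets, and depth was estimated roughly at 21800000 to 25100000 fragments. Several libraries stood apart and are named here before the results. Libraries 4 and 5 of set 2 had the lowest rod transcripts and the highest transcripts of PERK-ATF4 targets, a branch of the stress response. Results without both were added after these values were seen, and leaving them out raises the rod levels of set 2 by construction. Library 1 of set 2 had the most lens transcripts, and library 2 of set 1 had the highest mean log2 level of ciliary body and smooth muscle genes. Transcripts of Y-linked genes were at 0 or up to 0.06 FPKM in libraries 1 to 4 of set 2 and present in the other 6 libraries. The sets also differed in level at 45.8% of genes tested, as given below, so set and gene table cannot be told apart, and Y-linked transcripts follow the set in 9 of the 10 libraries.

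The upstream sequences of 3 photoreceptor genes and 2 lens genes are printed first, because these lists held the highest transcripts and the most variable ones of set 2. CRX, the homeodomain factor of photoreceptors, is known to bind the core TAATCC, and NRL and the MAF factors of lens bind elements built around TGCTGA. Each line gives the 250 bases before the annotated start from RefSeq on GRCm38.p6, in the direction of the gene, with either motif on either strand in capitals. Sag lies on the plus strand at chr1:87803430-87803679, Rbp3 on the plus strand at chr14:33953753-33954002 and Crx on the minus strand at chr7:15879956-15880205. Cryaa lies on the plus strand at chr17:31677681-31677930 and Cryba1 on the minus strand at chr11:77725294-77725543.
Sag: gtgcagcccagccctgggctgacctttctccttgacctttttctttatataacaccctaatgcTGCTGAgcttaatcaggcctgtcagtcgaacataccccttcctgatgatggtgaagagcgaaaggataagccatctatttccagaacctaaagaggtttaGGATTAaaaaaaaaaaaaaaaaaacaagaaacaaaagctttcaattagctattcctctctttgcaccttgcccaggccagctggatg
Rbp3: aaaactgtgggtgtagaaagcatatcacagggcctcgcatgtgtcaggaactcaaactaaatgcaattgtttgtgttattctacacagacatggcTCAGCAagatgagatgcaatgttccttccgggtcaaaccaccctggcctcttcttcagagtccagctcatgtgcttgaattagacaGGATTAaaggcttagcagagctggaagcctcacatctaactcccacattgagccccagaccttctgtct
Crx: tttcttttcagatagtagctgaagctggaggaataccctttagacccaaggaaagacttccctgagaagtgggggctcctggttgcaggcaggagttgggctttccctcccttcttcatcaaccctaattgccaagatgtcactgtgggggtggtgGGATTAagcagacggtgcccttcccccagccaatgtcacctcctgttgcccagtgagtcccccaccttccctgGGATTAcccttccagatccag
Cryaa: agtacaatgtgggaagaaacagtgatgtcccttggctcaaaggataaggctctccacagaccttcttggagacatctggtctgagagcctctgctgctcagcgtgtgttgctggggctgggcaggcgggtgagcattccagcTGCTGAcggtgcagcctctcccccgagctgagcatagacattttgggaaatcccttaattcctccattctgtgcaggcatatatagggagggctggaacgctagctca
Cryba1: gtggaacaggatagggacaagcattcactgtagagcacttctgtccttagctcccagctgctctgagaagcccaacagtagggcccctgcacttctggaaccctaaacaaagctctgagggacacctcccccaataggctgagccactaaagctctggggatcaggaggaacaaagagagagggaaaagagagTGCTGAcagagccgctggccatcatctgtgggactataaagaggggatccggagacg

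In Sag the TAATCC core, read on the reverse strand as GGATTA, lay 87 to 82 bases before the start and TGCTGA lay 187 to 182 bases before it. Crx, which encodes the factor itself, held the core at 94 to 89 and at 21 to 16 bases. Cryaa held TGCTGA at 108 to 103 bases and Cryba1 at 57 to 52 bases. Windows were found for 18 of the 24 rod phototransduction genes, and 11 of them (61.1%) held TAATCC, beside 7.2% of the 27025 genes with a window of the same length. The share was 38.2% (21 of 55) over the rod, cone, disc and photoreceptor factor lists together and 15.9% (10 of 63) over the shared top genes. TGCTGA stood in 14 of 20 matched lens genes (70.0%) and in 6 of the 18 rod genes (33.3%), beside 18% of all genes. The lens genes include the gamma crystallin cluster, whose members resemble each other, so these windows are not independent. A match describes letters only and shows no binding.

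The highest transcripts in both sets were led by those of the rod. Gnat1, the rod transducin alpha subunit, ranked 2 of all genes in both sets. Its FPKM values were 6476, 6928, 6476, 6094 and 7174 in set 1, against 5234, 5360, 5884, 3947 and 3841 in set 2. The sets did not overlap, libraries 4 and 5 of set 2 were lowest, and Gnat1 was lower in set 2 by limma (log2 difference, set 2 minus set 1, -0.47 ± 0.13, SE; adjusted p = 0.0115). Without those 2 libraries the Gnat1 difference was -0.27 (limma adjusted p = 0.0281), and after quantile normalization it was 0.00. With no filter on low values the call was lost too (limma adjusted p = 0.182). Gnb1 and Gngt1, the beta and gamma partners of Gnat1, averaged 1583 and 835 FPKM over the 10 libraries and overlapped between the sets. Thus the alpha subunit transcript was above those of its partners in all 10 libraries.

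The effector came next. Pde6g, the inhibitory subunit of the rod phosphodiesterase, stood at 2234, 1991, 2196, 2251 and 2415 FPKM in set 1. It stood at 2332, 2754, 2771, 1642 and 1548 in set 2. The extremes of set 2 enclosed all of set 1, and the set means were 2218 and 2209. Without libraries 4 and 5 of set 2, Pde6g was higher in set 2 by 0.24 (log2, limma adjusted p = 0.0451). The catalytic subunits Pde6b and Pde6a averaged 737 and 581 FPKM, and both were lower in set 2 (adjusted p = 0.0359 and 0.0125, limma). The Pde6b call was lost without any 1 library of set 1, without library 4 or library 5 of set 2 and without both (adjusted p from 0.0546 to 0.133, limma). The channel subunits Cngb1 and Cnga1 averaged 351 and 275 FPKM, and the exchanger Slc24a1, which removes calcium from the outer segment, averaged 317.

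Genes that end the light response were also near the top. Sag, rod arrestin, and Gnat1 served to check the retina label, and Sag ranked 4 in set 1 and 7 in set 2. It stood at 2760, 2757, 2438, 2415 and 2552 FPKM in set 1. The set 2 values of Sag were 1834, 2288, 2113, 1406 and 1285, all below set 1 (log2 difference -0.57 ± 0.15, limma adjusted p = 0.00864). Without libraries 4 and 5 of set 2 the Sag difference was -0.32 (limma adjusted p = 0.0148). Rcvrn, recoverin, averaged 1106 FPKM and the cyclase activators Guca1b and Guca1a averaged 1021 and 842. Grk1, the kinase that shuts off the light-activated pigment, averaged 314 and Rgs9, which speeds the shut-off of transducin, averaged 224 FPKM. The cyclase Gucy2e averaged 113 FPKM and its relative Gucy2f 27.7, the lowest of the 24 rod genes.

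Carriers and structural proteins completed the rod group. Pdc (phosducin, which binds the beta and gamma subunits) averaged 1707 FPKM, Unc119 (a carrier of lipid-modified transducin) 1398, and Rbp3 (the retinoid carrier between photoreceptors and pigment epithelium) 1163. The disc rim proteins Prph2 and Rom1 averaged 2058 and 1788 FPKM with coefficients of variation of 3.59% and 3.35% in set 1 and of 13.4% and 15.6% in set 2. Aipl1, a chaperone needed for the phosphodiesterase, averaged 627 and Tulp1, a protein of photoreceptor transport, 581. Cep290 and Rpgr, genes of the cilium, were far lower at 12.5 and 8.4 FPKM, beside a median of 162 for the disc and cilium list. Rpgr was the lowest gene of that list. All 24 rod and all 18 disc and cilium genes were at 1 FPKM or more in the 10 libraries.

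**Figure D1:**
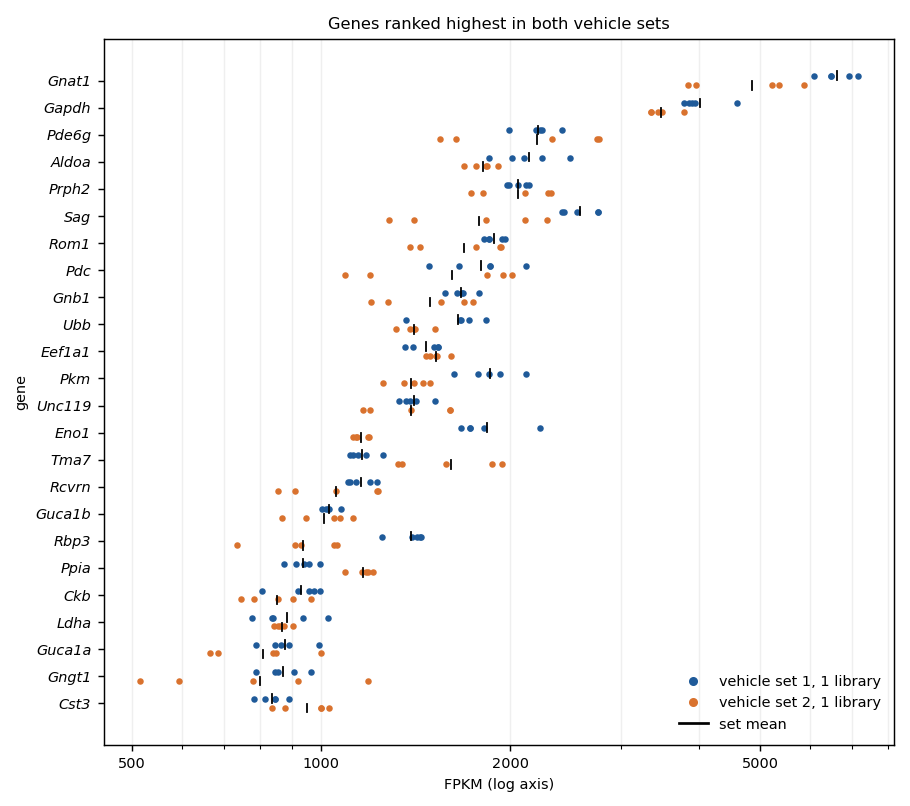
FPKM (log axis) of 24 of the 25 genes with the best rank in both vehicle sets; each point is 1 library, blue for set 1 and orange for set 2, and the bars are set means. Gnat1 spans 3841 to 7174 FPKM, and the 2 low orange points of many rod genes are libraries 4 and 5 of set 2.

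The factors that set photoreceptor identity spread widely in level, from 4.25 to 768 FPKM on average, with a list median of 131. Nrl, which directs precursors to the rod fate, averaged 768 FPKM and Crx 493, and both were in the first 100 genes of both sets. Nr2e3, which keeps cone genes silent in rods, averaged 363 FPKM, Neurod1 254 and Otx2 117. Otx2 varied little, at 115 ± 4.34 FPKM (SD, n = 5) in set 1 and 119 ± 4.59 in set 2. Factors of cone development were low, with Thrb at 11.8 and Rxrg at 5.32 FPKM on average.

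Cone transcripts were present in every library at far lower levels than their rod partners. Both cone opsins were found: Opn1sw (short wavelength) at 180 and Opn1mw (middle wavelength) at 138 FPKM on average, with Opn1sw above Opn1mw 1.05 to 1.51 times. Gnat1 was 61.8 ± 4.79 times Gnat2 (mean and SD of the ratio, n = 10), and the rod channel subunit Cngb1 was 71.0 ± 6.87 times its cone partner Cngb3. Sag was 16.1 ± 4.19 times the cone arrestin Arr3. Small subunits gave smaller ratios, 6.84 ± 0.731 for Pde6g over Pde6h and 5.95 ± 0.740 for Gngt1 over Gngt2. The rod to cone ratio was therefore not 1 number but ran from about 6 to about 71 with the pair.

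Ratios varied less between libraries than the levels did for some pairs. Gnat1 over Gnat2 ran from 55.3 to 70.5, although Gnat1 itself ran from 3841 to 7174 FPKM. By contrast, Cnga1 over Cnga3 averaged 45.6 in set 1 and 71.1 in set 2, since Cnga3 was lower in set 2 (means of 6.34 and 3.72 FPKM). Sag over Arr3 ranged from 9.16 to 22.

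**Figure D2:**
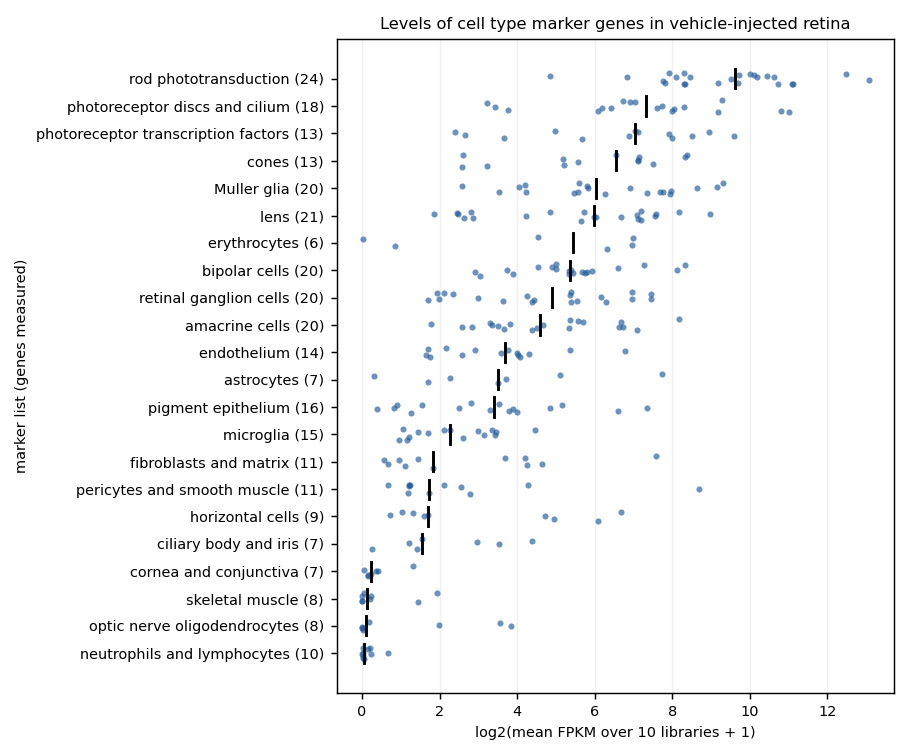
Mean level over 10 libraries, as log2(FPKM + 1), of each measured gene (points) of 22 marker lists, with the list median as a bar and the number of genes in brackets. Rod genes lie highest, and markers of lymphocytes, oligodendrocytes, skeletal muscle and cornea lie near 0.

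Inner retinal neurons followed, in the order bipolar, ganglion and amacrine by the median of their marker lists, at 40.4, 30.3 and 23.2 FPKM. Among bipolar genes, Pcp2 (321 FPKM on average) and Gng13 (280), a gamma subunit of ON bipolar cells, led. Grm6, the glutamate receptor of ON bipolar cells, and its channel Trpm1 averaged 52.3 and 60.4 FPKM. All 20 bipolar markers were at 1 FPKM or more in each library, and their summed share of FPKM was narrow, 0.301 to 0.356%.

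Amacrine markers of high level were Calb2 (calretinin, 289 FPKM), the GABA-making enzyme Gad1 (105), Pax6 (102) and the glycine transporter Slc6a9 (97.7). Rare subtypes were visible at low level: Chat of starburst cells averaged 6.17 and Th of dopaminergic cells 2.43 FPKM. Ganglion cell genes of axon and cytoskeleton were high, with Uchl1 and Nefl both at 175, Sncg at 124 and Thy1 at 123 FPKM. Factors that define ganglion cells were far lower, with Rbpms at 19.8, Pou4f1 at 6.97, Pou4f2 at 4.05 and the melanopsin gene Opn4 at 2.81 FPKM. Several of the high genes are also expressed by other neurons. Horizontal cell genes had the lowest median of the retinal neurons, 2.22 FPKM, with Lhx1 at 2.22 and Onecut1 at 1.04. In set 2, library 5 had the highest value for 16 of 20 ganglion and 13 of 20 amacrine genes, beside 3911 of 12780 genes over all (30.6%).

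Müller glia were well represented, with a list median of 65.9 FPKM. Glul, glutamine synthetase, which clears glutamate, was their top gene and one of the most variable of the highly expressed ones. It stood at 484, 709, 952, 666 and 670 FPKM in set 1 and at 666, 624, 1024, 254 and 330 in set 2. The range was from 254 in library 4 of set 2 to 1024 in library 3 of set 2, so the sets overlapped (limma adjusted p of the set difference 0.344). Set 1 was also spread, from 484 to 952. Rlbp1, the retinaldehyde carrier, had a narrower range, from 121 to 215 FPKM, as had Slc1a3, the glutamate transporter, from 50.6 to 62.7. Clu and Apoe, made by glia, averaged 573 and 400, and Apoe ran from 231 to 697 FPKM.

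Vascular and immune transcripts were low. Endothelial genes had a median of 11.8 FPKM (Kdr 39.9, Cldn5 15.4, Pecam1 4.98), and their summed share was 0.058 to 0.0703%. Pericyte and smooth muscle genes had a median of 2.30 FPKM. Vtn stood apart in that list at 414 FPKM, and it is also a known photoreceptor transcript. Microglial genes had a median of 3.81 FPKM, with C1qc at 9.69 and Csf1r at 3.81, whereas P2ry12 averaged 0.924. Library 3 of set 1 had the lowest value of its set for 13 of 14 microglial genes, beside 2152 of 12681 genes over all. Of 10 neutrophil and lymphocyte genes, 9 stayed under 1 FPKM in all libraries, S100a8 being the exception with a mean of 0.597. Gfap, an intermediate filament of astrocytes and reactive Müller cells, ran from 17.2 to 53.2 FPKM. Of 9 cell division genes, Pcna averaged 59.2 FPKM while Mki67 averaged 0.056.

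Glycolysis was the other function at the top. Gapdh ranked 3 of all genes in both sets, with 3937, 3848, 3789, 3890 and 4592 FPKM in set 1. In set 2 it stood at 3347, 3493, 3780, 3440 and 3353, all below the lowest of set 1, although the difference missed the threshold (-0.20 ± 0.08, limma adjusted p = 0.0584). Aldoa averaged 1976, Pkm 1626, Eno1 1495 and Ldha, which makes lactate, 875 FPKM. In total 9 of 24 glycolysis genes were among the first 100 of both sets, and the list held 2.99 to 4.11% of summed FPKM. By limma 11 of the 24 were lower and 1 higher in set 2, beside 20.1% lower and 25.7% higher over all genes. The median difference of the list was -0.15 (log2). Library 5 of set 1 had the highest value in its set for 17 of 24 genes, beside 1491 of 12681 genes over all.

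Ldha, the lactate dehydrogenase subunit of glycolytic tissue, was above the heart-type subunit Ldhb, which averaged 146 FPKM. Hk1 averaged 317 and Hk2, the hexokinase of photoreceptors, 80.9. Bsg, basigin, the partner of lactate carriers, averaged 476 FPKM, the carrier Slc16a1 53.1 and the pigment epithelial carrier Slc16a8 3.02. Ckb, creatine kinase, which buffers ATP, averaged 890 FPKM. Of nuclear genes for the respiratory chain, Atp5b averaged 638 and Ndufa4 581. The 13 mitochondrially encoded genes were not analysed here.

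Genes for making proteins were also frequent at the top. Of the 86 genes in the first 100 of both sets, 14 were rod phototransduction genes, 4 disc or cilium genes, 9 glycolysis genes and 17 carried a ribosomal protein symbol, and 31 were in no list used here. Eef1a1, the elongation factor, stood at 1535, 1358, 1400, 1511 and 1535 FPKM in set 1 and at 1469, 1532, 1523, 1613 and 1489 in set 2, so the sets overlapped in part. Ubb (ubiquitin), Tma7 (a small protein tied to ribosomes), Ppia (cyclophilin A) and Cst3 (cystatin C) were the remaining genes of the first 25. Ribosomal, Gapdh, Ppia and Tma7 transcripts have near-identical processed copies in the genome, so their assignment is uncertain.

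Synaptic transcripts were high. Photoreceptors release glutamate continuously at ribbon synapses, with vesicle loading, docking and calcium entry run by separate proteins. Slc17a7, the glutamate transporter of synaptic vesicles, averaged 662 FPKM, Syp (synaptophysin) 623 and the vesicle SNARE Vamp2 522. Stx3, the syntaxin of ribbon synapses, averaged 242 FPKM, and Cplx4 and Cplx3, the complexins of those synapses, 330 and 153. Ctbp2, whose locus also makes the ribbon protein, ran from 84.8 to 105 FPKM. The channel of the rod terminal was lower, with Cacna1f at 76.8 and its partner Cacna2d4 at 99, while the channel regulator Cabp4 averaged 164. All 23 genes of the list were at 1 FPKM or more in every library, 11 were lower and 3 higher in set 2 by limma (20.1% and 25.7% over all genes), and the median difference was -0.09 (log2).

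ER chaperones, the class that ATF6 controls and that the series was built around, were at moderate level in vehicle retina. Calr, calreticulin, averaged 280 FPKM, Hsp90b1 195, Hspa5 (BiP) 141, Manf 74.7 and Hyou1 30.7. The list of 18 held 0.236 to 0.362% of summed FPKM, and 1 member, Derl3, averaged under 1 FPKM. Of 17 tested, 8 were lower and 1 higher in set 2, with a median difference of -0.22 (log2), beside 20.1% lower and 25.7% higher over all genes. Calr and Hsp90b1 were lower in set 2 (means of 346 and 215 FPKM, and of 231 and 159), while Hspa5 did not pass the test (156 and 125). Without libraries 4 and 5 of set 2 Hspa5 did pass (-0.50, limma adjusted p = 0.00573). In set 1, library 5 had the lowest value for 14 of 17, beside 3678 of 12681 genes over all (29%), the largest such share in its set.

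The order of genes was closely shared. Of the first 10 genes of each set 8 were common, of the first 25 there were 22, of the first 100 there were 86, of the first 1000 there were 911 and of the first 5000 there were 4681. Spearman's rho of the set means was 0.991 over the 18440 genes, a description across genes that are not independent. Single libraries correlated at 0.989 to 0.996 within set 1, 0.975 to 0.987 within set 2 and 0.963 to 0.979 between sets, so the between-set values lay below nearly all within-set values. In all, 12129 genes (65.8%) were at 1 FPKM or more in each library, 529 at 100 or more and 16 at 1000 or more. The 10 highest genes held 5.87 to 8.92% of summed FPKM and the 100 highest 19.5 to 24.1%. Libraries 4 and 5 of set 2 were lowest in both.

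**Figure D3:**
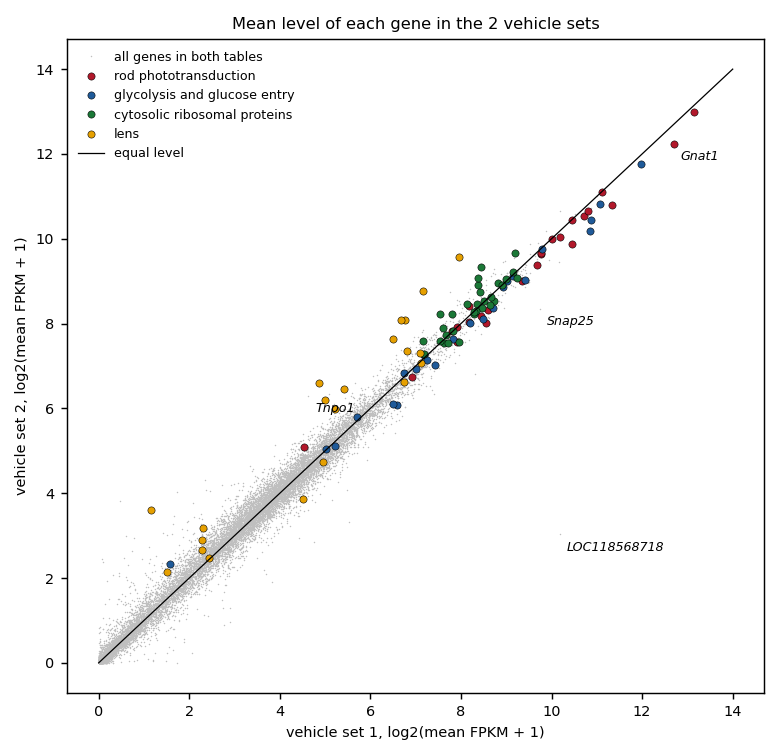
Mean level of each gene in set 1 (horizontal) and set 2 (vertical), as log2(mean FPKM + 1), with 4 lists coloured and equality as a line. Most genes lie close to the line, while LOC118568718 and Snap25 lie below it. Most lens genes lie above it on these means, although the median over lens genes of the log2 difference (set 2 minus set 1) was -0.34. Limma called 0 of the 21 lens genes, and the list as a whole was not tested.

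Levels were shared less well than ranks. Of 12755 genes tested with limma, 5838 (45.8%) differed between the sets, 3278 higher and 2560 lower in set 2. Of the 86 shared top genes 39 differed, a share near the 45.8% of all genes, and 13 were higher and 26 lower. The sizes were mostly small: of 1089 genes in the first 1000 of either set, 793 (72.8%) had set means within 1.25-fold and 15 were over 2-fold apart. Of 24 rod genes, 9 were lower and 2 higher in set 2, with a median difference of -0.18 (log2). Without libraries 4 and 5 of set 2, 7 were lower and 3 higher and the median was 0.01. Those libraries were singled out for low rod transcripts, so this shift follows in part from the choice. Of 31 ribosomal protein genes 10 were higher and 2 lower, and of 30 respiratory chain genes 14 were higher and 2 lower. The median differences of these lists were 0.05 and 0.15 (log2). The rod, ribosomal and respiratory counts stand beside 25.7% higher and 20.1% lower over all genes.

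Among the first 1000 genes of either set, those of largest log2 difference were as follows. LOC118568718, an uncharacterised locus, stood at 1087, 1762, 1060, 947 and 956 FPKM in set 1 (rank 18) and at 6.31, 7.79, 6.09, 7.04 and 8.66 in set 2 (rank 8769), a difference of -7.12 ± 0.16 (log2; limma adjusted p = 1.37e-10). Snap25, a SNARE protein of neurotransmitter release, stood at 840, 829, 876, 883 and 843 FPKM in set 1. In set 2 it stood at 334, 271, 322, 321 and 382, and its rank went from 28 to 155 (-1.40 ± 0.08, adjusted p = 3.02e-07). In both genes the sets were far apart. The coefficient of variation of Snap25 was 2.79% in set 1 and 12.1% in set 2. That of LOC118568718 was 29.3% and 14.8%, with library 2 of set 1 highest.

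Tnpo1, a nuclear import receptor, was higher in set 2 by 1.65 ± 0.13 (log2, limma adjusted p = 2.89e-06; means of 23.7 and 77.2 FPKM). Rpl39 (1.01) and Ndufb4c (0.96) were also higher by limma, and H2bc4 (-1.5), Smarca2 (-1.14) and Crocc (-0.90) lower. The haemoglobin genes Hbb-bs and Hba-a1 were lower by -1.04 and -0.98, near the threshold (limma adjusted p = 0.0321 and 0.0453), and varied widely within sets. Both calls were lost without library 1, 2 or 4 of either set (adjusted p from 0.0603 to 0.107, limma). Another gene, Gm20594, was listed only for set 1, at 476 FPKM. Whether the 2 gene tables assign reads to these loci in the same way was not tested.

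Most transcripts were steady between libraries of a set. The median SD of log2(FPKM + 1) was 0.080 in set 1 and 0.111 in set 2, and SD was larger in set 2 for 71.2% of 12548 genes. Only 133 of 12681 genes in set 1 (1.05%) and 296 of 12780 in set 2 (2.32%) had an SD over 0.5. Among genes of 50 FPKM or more in both sets the steadiest were Gtf2i, Glyr1, Cct8, Cdc37, Ddb1, Dcaf7, Usf2, Copg1, Dcaf8 and Ilrun, most of them general transcription, folding, transport or ubiquitin-ligase genes. Dcaf8 ran from 60.9 to 64.8 FPKM over all 10 libraries and Cct8, a subunit of the cytosolic chaperonin, from 70.4 to 75.4. Steady inside a set was not equal between sets: Gtf2i was 88.9 ± 1.66 FPKM in set 1 and 70.7 ± 1.12 in set 2 (limma adjusted p = 1.17e-05).

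Genes often used as references were compared in the same way. Of 18 measured, 10 did not pass the test between sets, among them Tbp (22 and 22.1 FPKM), Rps18 (478 and 479), Pgk1 (515 and 509), Eef2, Rplp0, Hprt, Gusb, B2m and Gapdh. Gusb passed without library 5 of set 2 (0.27, limma adjusted p = 0.0146), Rplp0 without library 2 of set 1 or library 4 of set 2 (-0.20 in both), and Gapdh without library 3 of set 2 (-0.23, limma adjusted p = 0.0478). Gapdh also passed with a filter at 5 FPKM (adjusted p = 0.0395, limma) and with no variance trend (0.0173), and Rplp0 with median-ratio scaling (0.0312). The other 8 did pass, a share near the 45.8% of all genes. Actb was lower in set 2 by -0.51 and Polr2a by -0.54, and Rpl13a was higher by 0.89 and Ppia by 0.32 (log2, limma).

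Lens transcripts were the most variable in set 2. All 21 lens genes measured were among the 100 most variable genes of both sets, which shared 52 genes in all. Cryaa, alpha A crystallin, stood at 155, 344, 191, 31.9 and 508 FPKM in set 1 and at 2422, 645, 2.92, 711 and 11.3 in set 2. Values of Cryba1, beta crystallin A1, spanned 0.46 to 696 FPKM and those of Crygd 1.25 to 285. The whole list held 0.0187 to 1.86% of summed FPKM. In set 1 library 5 was highest for 19 of 21, beside 11.8% of all genes, and library 4 lowest for all 21, beside 13.5%. In set 2 library 1 was highest for 15 and library 3 lowest for 17, beside 13.4% and 18.1% of all genes. The SD of Cryaa on the log2 scale was 1.52 in set 1 and 4.07 in set 2. Most of the other genes of largest SD in set 2 were crystallins too: Crygs, Crybb2, Crygc, Cryba2, Crygb, Cryge, Cryba4, Crybb1, Crybb3 and Crygf had SDs of 1.16 to 1.45 in set 1 and 2.86 to 3.90 in set 2. Cryab, which retinal cells also express, did not fall under 58.8 FPKM.

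A further group separated library 1 of set 2. Foxe3, a factor of lens epithelium, stood at 22.2 FPKM there and at 0.15 or less in the other 9. Mip, the lens aquaporin, stood at 52.1 FPKM there and at 2.81 or less elsewhere. Col4a1 and Igfbp7 were at 72.9 and 218 FPKM in that library, with the next highest values at 15 and 39.3. R3hdml, Nid1, Wnt7b and Aldh3a1, an enzyme gene of the cornea and conjunctiva list, had the same single high library. In the other 9 libraries crystallins therefore appeared with little or no Foxe3.

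Genes of the ciliary body and iris made a second pattern. The mean log2 level of their list was highest in library 2 of set 1 (2.90) and library 1 of set 2 (2.71). Optc, opticin of the non-pigmented ciliary epithelium, stood at 28.5, 59.1, 0.82, 28.3 and 1.29 FPKM in set 1 and at 39.8, 0.77, 34.1, 6.22 and 1.43 in set 2. The SDs of Optc, 2.34 in set 1 and 2.11 in set 2 (log2), were above those of all lens genes in set 1 and below most crystallins in set 2. Fbln1 followed with 26.3, 33.6, 0.47, 30.3 and 1.34, and with 38.7, 0.91, 30.4, 10.7 and 1.02. Libraries 1, 2 and 4 of set 1 and 1 and 3 of set 2 were high in both, and library 4 of set 2 was between. Gpx3, Mfap4, Gja1, Fmod and Penk, an opioid precursor also made by amacrine cells, were high in the same libraries. Neither these genes nor Fbln1 are in the ciliary body and iris list. This order differed from that of the lens genes, in which library 3 of set 2 was at the bottom.

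Pigment genes formed another. Mlana stood at 4.37, 51.1, 0.44, 11.8 and 0.97 FPKM in set 1 and at 19.4, 0.68, 5.65, 6.75 and 4.37 in set 2, and Pmel, Dct, Tyrp1 and Gpnmb were likewise highest in library 2 of set 1. Genes of the pigment epithelium proper did not follow: Rpe65 ran from 3.16 to 14.4 FPKM and was highest in libraries 1 and 2 of set 2, and Ttr from 52.6 to 167. Library 2 of set 1 also had the most Acta2 (19.1 FPKM) and Myh11 (6.56), genes of smooth muscle, and Dcn (10.4), a matrix gene. Of the 100 most variable genes it held the highest value for 56 in set 1, and library 1 held it for 55 in set 2.

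**Figure D4:**
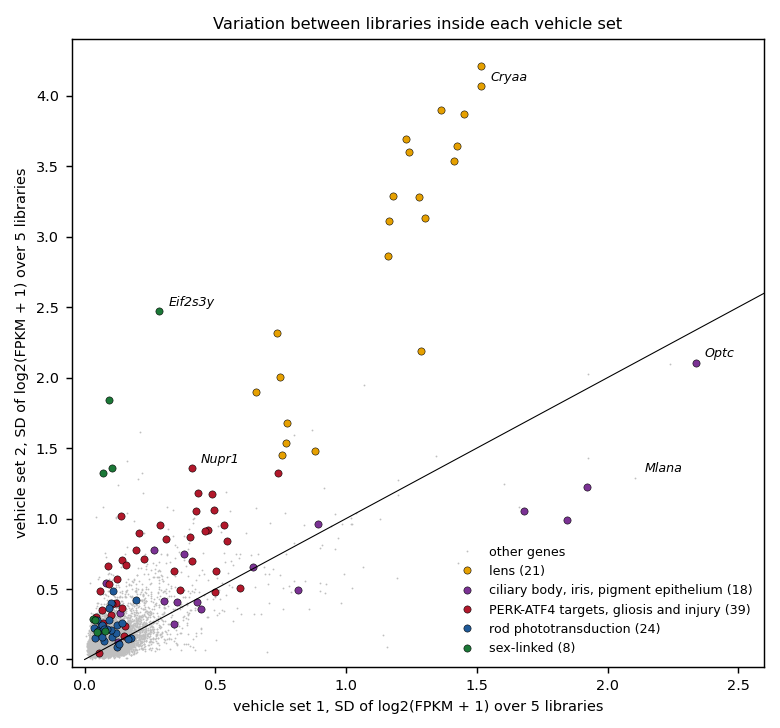
SD of log2(FPKM + 1) over the 5 libraries of set 1 (horizontal) and of set 2 (vertical) for genes of 1 FPKM or more in both, with 5 groups of lists coloured and equality as a line. Lens genes vary most in set 2, Optc and Mlana lie above them in set 1, and Eif2s3y varies in set 2 alone.

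Stress and injury transcripts varied in set 2 in particular libraries. Nupr1, a stress-induced chromatin protein, stood at 38.2, 24.4, 23.4, 32.5 and 46.6 FPKM in set 1 and at 62.1, 29.4, 16.6, 137 and 151 in set 2. Chac1, a target of ATF4 that degrades glutathione, stood at 3.54, 3.57, 5.09, 19.7 and 13.9 FPKM in set 2 and at no more than 3.47 in set 1. Libraries 4 and 5 of set 2 were the highest of all 10 in both genes. For PERK-ATF4 targets, library 5 was highest for 17 of 24 genes of set 2 and library 4 for 6, beside 3911 and 3064 of 12780 over all. Atf4 itself ran from 170 to 356 FPKM. ER chaperones were highest in libraries 4 and 5 for 2 and 10 of 17 genes. Their shares there, 0.270 and 0.297% of summed FPKM, were the highest of set 2 but not above the range of set 1, 0.284 to 0.362%.

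Genes of gliosis and injury differed between these libraries. Fosl1, an AP-1 subunit, stood at 6.30 and 15.3 FPKM in libraries 4 and 5 and at 1.55 or less in the other 8, and Lif, a cytokine released on photoreceptor injury, at 4.25 and 5.23 against 1.06 or less. Cdkn1a (p21), Eif4ebp1, Cxcl10, Nes and Tnfrsf12a were likewise highest in these libraries. Prss56, a serine protease of Müller cells, stood at 110 and 181 FPKM in libraries 4 and 5 and at 9.06 to 53.5 in the other 8. Library 4 alone was highest in Ccl2 (22.1 FPKM, beside 2.75 in library 5), Timp1 (14.9), Edn2 (42.3), Fgf2 (64.6) and Lcn2 within its set (64.9). Gliosis genes were highest in library 4 for 12 of 20 members, and interferon and antigen presentation genes for 13 of 19. Over all genes of set 2 that share was 24.0%. Within set 1, library 1 was highest for 16 of 19 gliosis genes, beside 2615 of 12681 over all, with Lcn2 at 73.2 and Gfap at 53.2 FPKM.

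**Figure D5:**
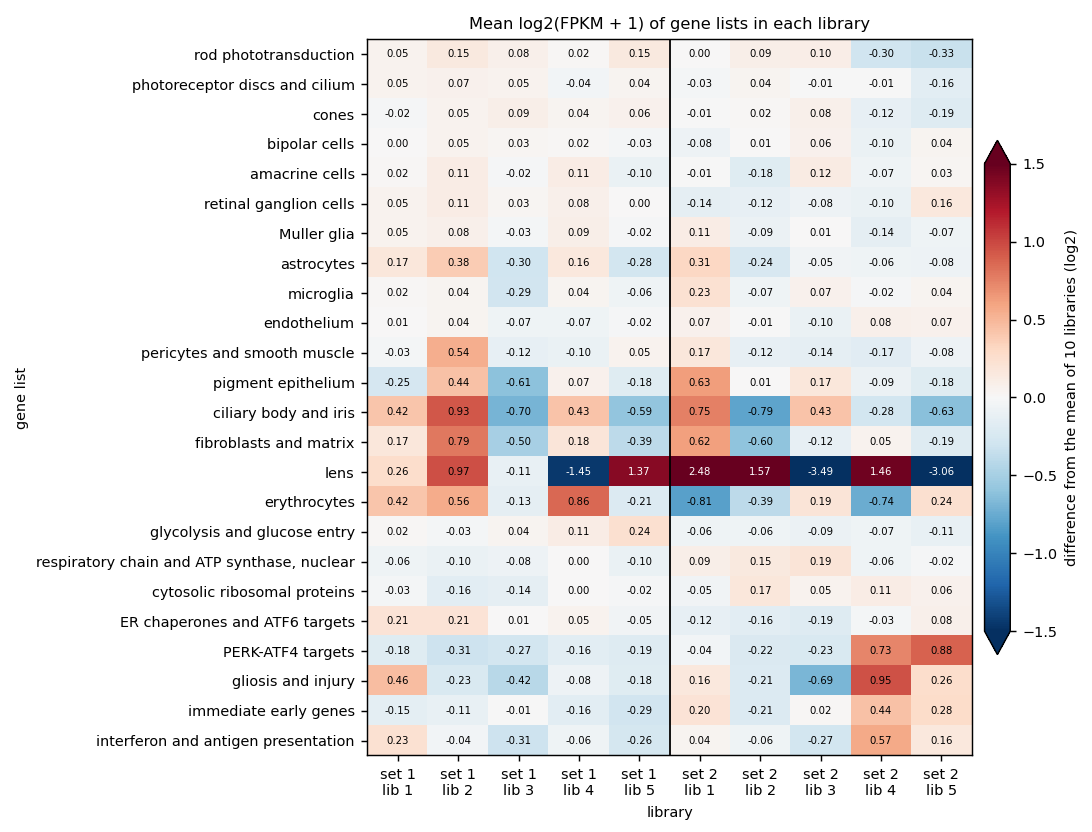
Mean log2(FPKM + 1) of 24 gene lists (rows) in each library (columns), as the difference from the mean of the 10 libraries; colours saturate at 1.5. Libraries 4 and 5 of set 2 are low for rod genes and high for PERK-ATF4 targets, and lens genes differ most of all lists.

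The same libraries were lowest for rods. Of 24 rod genes, set 2 values were lowest in library 4 for 11 and in library 5 for 13, beside 1839 and 2560 of 12780 genes over all. The rod list held 7.49, 7.98, 8.23, 6.01 and 5.69% of summed FPKM in libraries 1 to 5 of set 2, and 7.81 to 8.74% in set 1. The cone list held 0.352 and 0.288% in libraries 4 and 5, beside 0.345 to 0.376% in set 1. The ganglion cell list held 0.221 and 0.270% there, beside 0.246 to 0.253% in set 1. Lens share was 0.775% in library 4 and 0.0230% in library 5, so these libraries were alike in rod genes and unlike in lens genes. Without both libraries, limma called 5965 genes between the sets, beside 5838 with them.

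Sex-linked transcripts divided set 2. Eif2s3y stood at 51.4, 33.3, 54.6, 39.6 and 47.2 FPKM in set 1 and at 0, 0, 0, 0 and 45.0 in set 2, and Ddx3y, Kdm5d and Uty had the same split. The X-linked Kdm6a, which escapes X inactivation, stood at 16.6, 17.0, 16.7 and 17.7 FPKM in libraries 1 to 4 of set 2, at 10.7 in library 5 and at 7.32 to 7.98 in set 1. Library 5 of set 2 thus carried Y-linked transcripts with Kdm6a between both groups. The labels give no sex. In set 1, library 4 had Gdf1 at 9.79 FPKM and its overlapping neighbour Cers1 at 0.49, beside at most 2.00 and at least 6.90 in the other 4, and since the genes overlap, both are uncertain. H3c15, a histone gene, stood at 11.6 FPKM in the same library and at 0 in the other 9.

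The part of neighbouring tissue, of the stress pattern and of sex in the differences between sets was not tested. Libraries with much lens, ciliary or pigment transcript occurred in both sets. Limma called 0 of 21 lens genes between sets, with no unadjusted p under 0.05 (the smallest was 0.242, for Cryga). The SD in set 2 was up to 4.21 (log2, Cryba1), so only a very large difference could have been called. That count therefore decides nothing about neighbouring tissue. Of 13 pigment epithelium genes tested, 3 were higher in set 2, and 6 without libraries 4 and 5 of set 2, beside 25.7% of all genes.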

How the data were processed

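RNA-seq values of 10 vehicle libraries, 5 per set, were used out of 25. The deposited values are FPKM per gene, computed by the authors and rounded to 2 decimals. GRCm39 and 3 tools, RSEM 1.2.18, DESeq2 1.4.5 and HISAT2 2.0.4, are named in the submitters' processing notes without their role or order. No counts were used, so depth was only estimated from the steps between low values, assuming 250 bases off each transcript (21800000 to 25100000 fragments). The number of columns not used was 0.

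Genes were ranked by mean FPKM in each set over the 18440 genes listed in both gene tables. Variation is the SD of log2(FPKM + 1) over 5 libraries, and the pseudocount of 1 understates changes of low genes. Set levels were compared with limma 3.58.1 (variance trend, Benjamini-Hochberg adjusted p under 0.05, R 4.3.3) on genes at 1 FPKM or more in at least 5 libraries. The shift of the median gene was 0.03 (log2). The scripts for variation, depth and set differences were tested on simulated data. The simulation for depth took the same 250 bases off each transcript, so it did not check that assumption. Python 3.11.15, numpy 2.4.6, pandas 2.3.3, scipy 1.17.1 and matplotlib 3.10.9 were used.

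Named genes were the 25 of best rank in both sets, up to 6 of highest level in each list with its defining markers, the 15 of largest SD in each set and the list members among the 100 most variable of both, the 10 steadiest at 50 FPKM or more, reference genes, and the 10 of largest set difference among the first 1000. Some genes that meet this rule are not reported here. A few others were named after their values were seen. The libraries, lists and rules were chosen with earlier results of these data known. Alternatives covered the filter, pseudocount, scaling, measure of spread, libraries and replicate block.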

Additional observations from a re-analysis of the deposited data

Results flagged for a closer look

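Of 524 groups of 5 libraries tested, one for each named gene or list in each set, 58 (11.1%) held a library whose gap to its nearest neighbour exceeded 0.71 of the whole range, where chance gives about 1 in 20. Many of these genes were named for their spread or after their values were seen, so the share cannot be read against that. Library 1 of set 2 had the most, 14, and all were high values. Genes of lens and its epithelium were Cryab at 1459 FPKM, Mip 52.1 and Foxe3 22.2. Aldh3a1, of the cornea and conjunctiva list, stood at 12.9 FPKM. Genes of basement membrane and connective tissue were Igfbp7 at 218 FPKM, Col4a1 72.9, Nid1 18.5 and Dcn 2.89. R3hdml stood at 34.9 FPKM, Wnt7b at 7.41 and Gdf1 at 2.39. The melanosome genes Gpnmb and Pmel stood at 41.9 and 26.1 FPKM, and pericyte and smooth muscle genes had a mean log2(FPKM + 1) of 2.64.

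Library 2 of set 1 had 11, again all high. Pigment genes were Gpnmb at 86.0 FPKM, Pmel 74.7, Mlana 51.1 and Tyrp1 34.8, and Trpm1, which pigment cells also express, stood at 83.6. Acta2 was at 19.1 FPKM, Myh11 at 6.56 and Dcn at 10.4, and the pericyte and smooth muscle list had a mean of 3.01 (log2). LOC118568718 stood at 1762 FPKM and Polr2a, the large subunit of RNA polymerase II, at 100.3.

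Library 5 of set 2 had 10. Eif2s3y stood at 45.0 FPKM, Ddx3y at 16.3, Kdm5d at 7.26 and Uty at 7.13, all Y-linked, with Kdm6a lowest at 10.7 and a mean of the sex-linked list of 4.58 (log2). Cldn5, a tight junction gene of vessels, stood at 20.9 FPKM, the chaperone gene Hspa8 at 718.4, Derl3 at 1.48, and the ganglion cell list at a mean of 4.78 (log2). Library 4 of set 2 stood apart in Fgf2 (64.6 FPKM) and Ccl2 (22.1), library 3 in Pcp2 (343 FPKM), and library 2 was lowest in the clock gene Nr1d1 (85.9 FPKM).

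In set 1, library 1 stood apart in genes of injury and inflammation: Gfap at 53.2 FPKM, Ccl2 3.77, Fosl1 1.55, S100a8 1.33 and Lif 1.06, with Tnpo1 at 29.8 and a neutrophil and lymphocyte mean of 0.27 (log2). Library 5 was highest in Gapdh at 4592 FPKM, Eno1 2231, Nrl 814.5, Ttr 116.8, Rpe65 5.58 and Aldh3a1 0.29. Library 4 was lowest in Rbp3 at 1250 FPKM and Cers1 at 0.49 and highest in H3c15 at 11.6 and Gdf1 at 9.79. Library 3 was lowest in Prss56 at 12.2 FPKM and highest in Rxrg at 5.76. Several of these values are under or near 1 FPKM. The causes were not tested.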

How the results depend on the processing

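Rank agreement, concentration, breadth, the number of variable genes shared by the sets and the count of set differences stayed within 1.5 times their reported values in every alternative run. The first 100 genes shared 86 or 87. The 52 genes among the 100 most variable of both sets became 43 to 56 on leaving out 1 library and 46 by coefficient of variation. Lens genes among them fell from 21 to 15 with a filter at 5 FPKM and to 17 by coefficient of variation. The 5838 set differences ranged from 5200 to 5806 on leaving out 1 library. Of 77 named genes called, 54 kept the call in every setting. Prph2 turned to 0.17 after quantile normalization (log2, limma adjusted p = 0.0219). Pde6g turned to 0.24 without libraries 4 and 5 of set 2 (limma adjusted p = 0.0451), an alternative chosen after the data were seen. The SD of low genes depends on the pseudocount: that of Mip in set 2 was 2.32 with 1, 3.49 with 0.1 and 1.48 with 5. With the replicate number as a block limma called 5385 genes. Same-numbered libraries did not deviate together (correlations of -0.279 to 0.094). A pairing that leaves little trace in expression would give the same values, so pairing by number stays undecided. Depth per library was only estimated, so values under about 1 FPKM carry an unknown counting error.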

Other observations

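Clock genes were expressed throughout, though the time of day at collection is not given. Nr1d1 (REV-ERB alpha) averaged 124 FPKM and Dbp, an output gene of the clock, 108, with Arntl (BMAL1) at 39.2 and Per2 at 6.51. Of 17 measured, 4 were higher and 3 lower in set 2 by limma, a share near the 45.8% of all genes. Clock itself was higher (9.82 and 18.2 FPKM in sets 1 and 2) and Rorb lower (39.4 and 21.6), while Dbp stood at 108.3 and 107.8.

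The inducible heat shock genes divided set 2. Hspa1b, an inducible HSP70, stood at 25, 22.1, 23.4, 20.9 and 22.6 FPKM in set 1 and at 13.8, 11.0, 12.2, 25.7 and 26.4 in set 2. Libraries 4 and 5 of set 2 therefore lay slightly above all of set 1, and libraries 1 to 3 lay below it. Hspa1a followed, at 28.5 to 33.9 FPKM in set 1, 30.7 and 30.9 in libraries 4 and 5 of set 2, and 16.5 to 20.4 in libraries 1 to 3. Hspa1a and Hspa1b are near-identical copies, so their separate levels are uncertain. The constitutive Hspa8 averaged 664 FPKM and Hsp90aa1 648. Immediate early genes were low, with Fos at 20.5 and Arc at 0.737 FPKM on average. Of the non-visual opsins, Opn3 averaged 0.749 and Opn5 0.098 FPKM, the latter ranging from 0 to 0.18.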
